A study of Mus musculus with 12 samples.

Results

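Matrix proteases and their inhibitors were described in maps of N6-methyladenosine (m6A), a methyl mark on adenosines within RNA, from the lungs of mice with allergic asthma and of control mice. The genes were taken by name. They comprise the matrix metalloproteinases (Mmp), the tissue inhibitors of metalloproteinases (Timp), the membrane-anchored Adam proteases, and the secreted Adamts and Adamts-like (Adamtsl) proteins. A peak, a stretch of transcript in which antibody-captured RNA exceeded the input, was counted when the gene that the authors assigned to it bore such a name. This gave 75 of 27292 peaks in the OVA list, on 39 genes, and 83 of 26102 peaks in the PBS list, on 38 genes. Of the 85 genes with such names in RefSeq, 45 had a peak in at least 1 list and 40 had none. The share over all RefSeq genes was not counted, so the 45 cannot be read as many or few.

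The lungs came from female BALB/c mice aged 6 to 8 weeks. Mice of the OVA group were sensitized with ovalbumin in aluminum hydroxide on days 0 and 7 and inhaled 3% ovalbumin aerosol for 30 min daily on days 14 to 20, and PBS mice received the buffer. Lung tissue was taken on day 21, and each of 3 mice per group gave a library of RNA bound by an m6A antibody (IP) and a library of its input RNA. The authors deposited 1 peak list per group, so no value of a single mouse, no read count per peak and no replicate error was at hand, and every difference between the lists given here is a description without a test. The depth behind a peak is unknown.

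Matrix metalloproteinases cleave collagens, elastin and other matrix proteins, and the Timp proteins block them by binding to their active site. Adam proteases release growth factors, cytokines and receptors from the cell surface, while Adamts proteases cut proteoglycans such as versican and aggrecan and process procollagen. In the airways these enzymes take part in leukocyte entry and in the remodelling of the airway wall.

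Most peaks of these genes were found in both groups. By an overlap of at least 1 bp between exonic blocks, 14 of the 75 OVA peaks, or 18.7% (95% Wilson interval 11.5% to 28.9%, counting error only), overlapped no PBS peak, beside 19.4% of all OVA peaks. Of the 83 PBS peaks, 19 overlapped no OVA peak, or 22.9% (15.2% to 33.0%), beside 14.5% of all PBS peaks. The first share lay close to that of its whole list. The lower bound of the second interval lay just above the share of its list. With members chosen by the gene to which the peak caller itself had attached the peak, termed the called gene, the OVA share was 23.6% (15.98% to 33.4%) and the PBS share 16.5% (10.1% to 25.8%). Which list had the larger share thus depended on how a peak was given its gene, and by the called gene both intervals held the share of their list.

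By gene, 32 of the 45 had a peak in both lists. A further 7 had a peak in the OVA list only, or 17.9% of its 39 genes beside 12.5% of all genes of that list: Adam11, Adamts9, Adamts14, Adamtsl1, Mmp9, Mmp12 and Timp4. The PBS list alone had 6, or 15.8% of its 38 genes beside 8.95% of all genes: Adam9, Adam21, Adam28, Adamts10, Adamtsl4 and Mmp23. By the called gene, 6 of 46 genes, or 13.0%, had a peak in the OVA list only, beside 11.7% of all called genes, and 4 of 44, or 9.09%, in the PBS list only, beside 8.07%. Adamts9, Adamts14, Adamtsl1, Adam9 and Adamts10 then had a peak in both lists. The family shares thus lay closer in this reading to those of all genes, though still above them. The lists hold no expression level, so a missing peak cannot be told apart from RNA too scarce for a peak to be called. In bulk lung tissue, fewer cells of a type and less RNA per cell cannot be told apart either.

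The strength of a peak is given as fold enrichment, the authors' ratio between IP and input signal in the peak. Over the OVA family peaks the median was 5.34 (quartiles 3.66 and 11.2), beside 5.59 over all OVA peaks. Over the PBS family peaks it was 4.58 (quartiles 2.67 and 10.02), beside 5.44 over all PBS peaks. The middle range of the family peaks thus overlapped that of their lists. The highest values were 43.6 in the OVA and 35.8 in the PBS list, at the same place in Adamts15.

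The medians of the families differed. Timp peaks had the lowest medians, 2.12 over 5 OVA peaks and 3.04 over 3 PBS peaks. Mmp peaks had a median of 5.29 over 15 OVA peaks and 3.66 over 15 PBS peaks. Adam peaks had 6.50 over 26 and 4.95 over 30. Adamts peaks had 8.11 over 22 OVA peaks and 6.14 over 28 PBS peaks, and Adamtsl peaks had 6.16 and 6.91 over 7 peaks each. The order of the families was not tested.

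The 3' UTR held most peaks, as the authors' annotation placed them. It held 41 OVA peaks, or 54.7% (43.5% to 65.4%), beside 52.7% of all OVA peaks, and 48 PBS peaks, or 57.8% (47.1% to 67.9%), beside 52.7%. Both shares had the share of the whole list inside their interval. By the called gene they were 65.2% (54.8% to 74.3%) and 65.9% (55.3% to 75.1%), with both intervals above the share of the list. Exons outside UTRs held 20 OVA and 24 PBS peaks, and the 5' UTR held 14 and 11. Retained-intron transcripts were the assigned transcript of 26 OVA peaks, or 34.7% (24.9% to 45.9%), beside 20.4% of all OVA peaks. In the PBS list they took 32 peaks, or 38.6% (28.8% to 49.3%), beside 20.1%. Both intervals lay above the share of the whole list. They count each peak as independent, although neighbouring peaks of a gene, as in Mmp15 and Adam22, share the assigned transcript type. Most of these peaks stand in both lists, so the intervals are not separate checks. Among peaks assigned to protein-coding transcripts, 27.8% of 36 OVA peaks (15.9% to 44.0%) and 30.6% of 36 PBS peaks (18% to 46.9%) lay in the 3' UTR, beside 51.8% and 51.4% of all such peaks. The 3' UTR share thus stood above, at or below that of the lists, depending on which peaks were counted.

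Peaks that lay at the same place were paired, each OVA peak with the PBS peak of the same gene that shared most exonic bases with it. Of the 59 pairs, 6 had a fold enrichment over 2 times higher in the OVA list, beside 7.71% of 20622 pairs over all genes, and 4 had one over 2 times higher in the PBS list, beside 4.88%. As shares of the family pairs these were 10.2% and 6.78%. The other 49 pairs lay within that range. The median ratio of OVA over PBS was 1.13 over the family pairs and 1.098 over all pairs, or 0.18 and 0.13 on the log2 scale, and was not normalised between the lists. Where 2 values of a peak follow without the name of a list, the first is that of the OVA list.

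Large ratios went with weak evidence, that is, with a log10 p value closer to 0. Among family pairs in which the peak of weaker evidence had a log10 p value above -10, 7 of 16 differed by over 2 times, beside 24.9% of all such pairs. Between -10 and -50 the number was 2 of 20, beside 11.9%, and at -50 or below it was 1 of 23, beside 3.87%. These bounds were chosen after the values were seen.

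**Figure D1:**
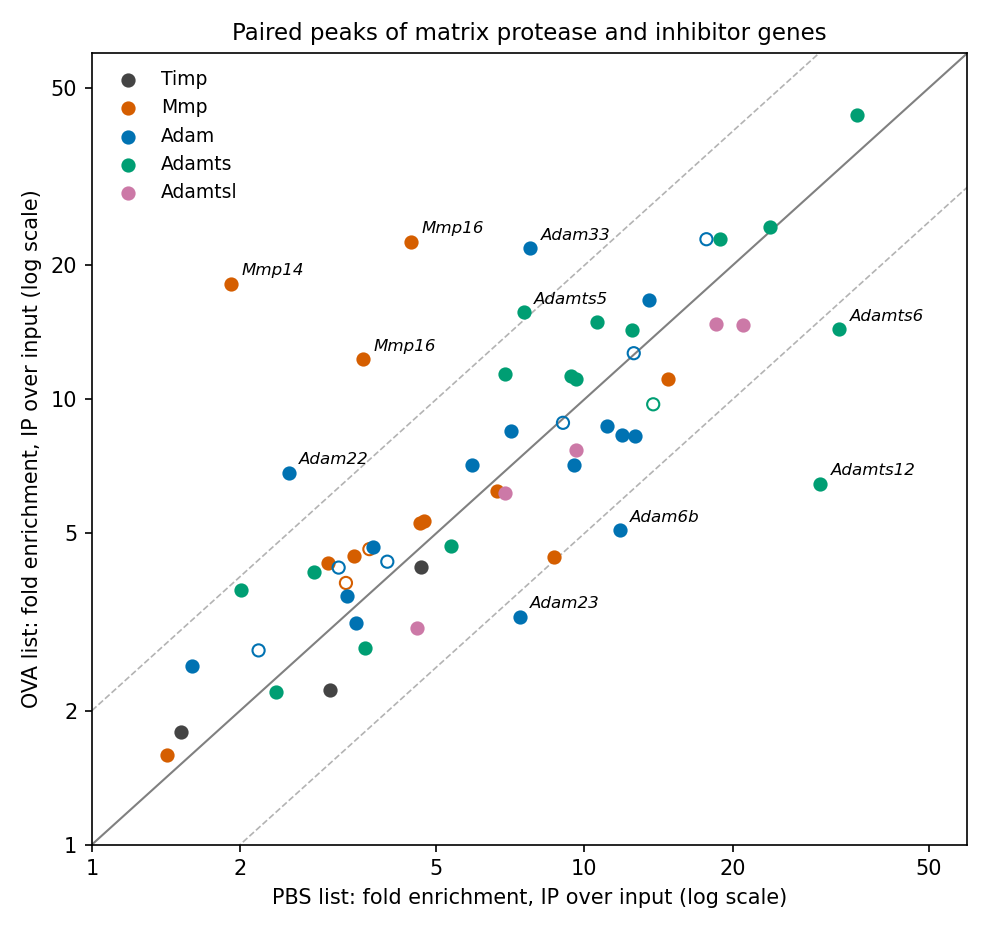
Fold enrichment of the 59 paired peaks in the PBS list (x axis) and in the OVA list (y axis), both as IP over input on log scales, with 1 point per pair, coloured by family. Filled points were called on the assigned gene and open points on another gene; the solid line marks equal values, the dashed lines a ratio of 2, and the 10 pairs beyond them carry the gene name.

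The inhibitors carried peaks of low fold enrichment. Timp1, a soluble inhibitor, had no peak in either list. Timp2, which also takes part in the activation of Mmp2, had a 5' UTR peak in both lists on chromosome 11, of 4.21 in the OVA list (118355184 to 118355393) and of 4.66 in the PBS list (118355154 to 118355393). A second Timp2 peak, in the 3' UTR, stood under the name of the neighbouring Usp36, with 1.85 and 1.63. Timp3, the inhibitor that binds to the matrix, had a 5' UTR peak of 2.22 and 3.04 and an exon peak of 1.79 and 1.52 on chromosome 10. Its 3' UTR peak at 86345973 to 86346063 was found in the OVA list only, at 1.55-fold with a log10 p value of -92.4, so that a low enrichment went with strong evidence. Timp4 had a peak in the OVA list only, with a fold enrichment of 2.12 and a log10 FDR of -0.864, which does not pass an FDR of 0.05. The values of Timp2 and Timp3 in the lists thus lay within a ratio of 2 of each other.

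Among the metalloproteinases, 8 genes had a peak in the OVA and 7 in the PBS list. Mmp14, a membrane-anchored collagenase that activates Mmp2, showed the largest ratio of the 59 pairs. Its 5' UTR peak on chromosome 14 reached 18.2-fold in the OVA list (54431612 to 54431852), at percentile 89.7 of that list, and 1.92-fold in the PBS list (54431672 to 54431852), at percentile 9.26. The ratio was 9.48, and the log10 FDR was -26.3 and -4.74. The next Mmp14 peak, 238 bp further on in the OVA list, lay the other way. It had 4.42 in the OVA and 8.66 in the PBS list. The peak near the 3' end had 6.24 and 6.66, and a further 3' UTR peak, called on Mmp14 but assigned to a neighbouring transcript, had 11.3 and 6.35. The direction thus differed along the transcript.

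**Figure D2:**
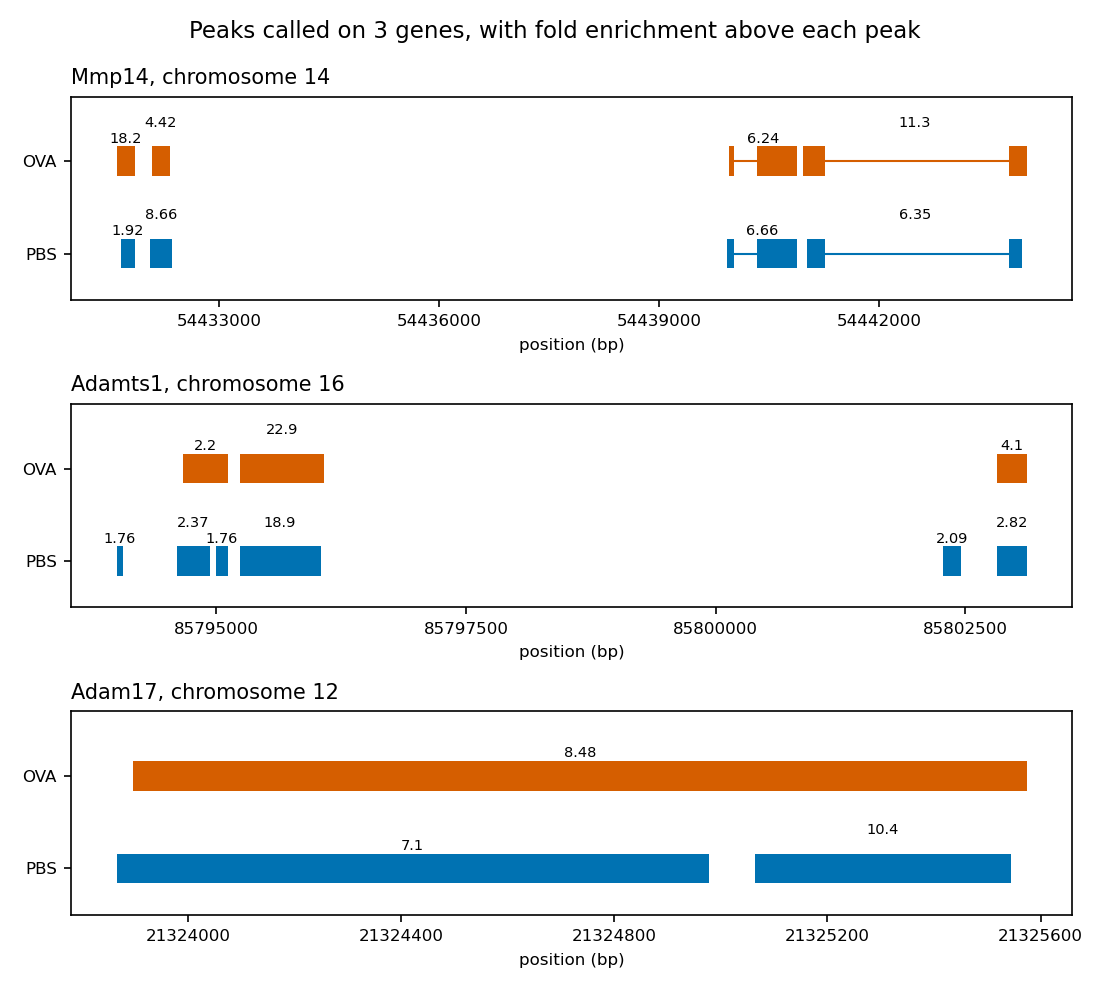
Positions in bp (x axis) of the peaks called on Mmp14, Adamts1 and Adam17 in the OVA list (upper row of each panel) and the PBS list (lower row), with boxes for exonic blocks, lines for the introns between them and the fold enrichment above each peak. The Mmp14 peak at the left end has 18.2 in the OVA and 1.92 in the PBS list, and Adamts1 has 3 peaks in the OVA and 6 in the PBS list.

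Mmp16, another membrane-anchored member, had a pair of 3' UTR peaks on chromosome 4 with higher values in the OVA list. They had 22.6 against 4.44 at 18115936 to 18116236, and 12.3 against 3.55 at 18116686 to 18116836. Each of these peaks rested on weak evidence, with a log10 FDR between -5.81 and -1.84. Mmp15 had 4 peaks in each list at matching places on chromosome 8. Its 5' UTR peak had 11.1 in the OVA and 14.8 in the PBS list, and the 3' UTR peaks had 4.46 and 3.40, 1.59 and 1.42, and 5.29 and 4.64. Mmp17 had 4.29 and 3.02, and Mmp11, a stromelysin, had 5.34 and 4.72. A further OVA peak and a pair of PBS peaks named Mmp11 were called on Gm867. Of the 13 Mmp pairs, 10 were higher in the OVA list, beside 61.5% of all pairs, and the same number lay above the median ratio of all pairs. The 13 pairs came from 6 genes. The pair named Mmp21 and 1 pair named Mmp11, both higher in the OVA list, were called on other genes. By the called gene, 10 of 17 pairs were higher in the OVA list, which is close to the share of all pairs.

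Mmp9 and Mmp12 had a peak in the OVA list only. The peak of Mmp12, the elastase of macrophages, covered the 5' UTR on chromosome 9 with 61 exonic bases between 7344411 and 7347407 and had a fold enrichment of 6.03 and a log10 FDR of -37.7. Mmp9, a gelatinase that neutrophils and macrophages release, had a 3' UTR peak on chromosome 2 at 164954980 to 164955160 with 3.71 and a log10 FDR of -24.1. Both passed an FDR of 0.05 by a wide margin. Mmp23 had a peak of 3.65 in the PBS list only. The peaks under the name Mmp21, 4.61 and 3.66, were called on the neighbouring Uros and lay outside the RefSeq position of Mmp21.

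The Adam family had 26 peaks on 13 genes in the OVA list and 30 peaks on 15 genes in the PBS list. The main sheddases had similar values in both. Adam10, which releases Notch and the low-affinity IgE receptor, had a pair of 3' UTR peaks on chromosome 9. The first had 8.34 in the OVA and 11.9 in the PBS list, and the second 3.14 and 3.44. Adam17, which releases tumour necrosis factor and ligands of the epidermal growth factor receptor, had a wide 3' UTR peak in the OVA list on chromosome 12, at 21323898 to 21325574, with 8.48. The PBS list divided the same stretch into peaks of 7.10 and 10.4. A count of peaks thus differed there while the covered stretch was nearly the same.

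Adam33, a gene known from human asthma genetics, had a 3' UTR peak on chromosome 2 at 131057886 to 131058696 that had 21.9 in the OVA list. In the PBS list the value was 7.77, a ratio of 2.82, although the log10 FDR was lower there, at -45.8, than in the OVA list, at -26.7. A second peak under the name Adam33, with 12.7 and 12.6, was called on Siglec1, a macrophage receptor. Adam8, a leukocyte protease raised in allergic airways, had no peak by the assigned gene. A 3' UTR peak called on Adam8, on chromosome 7 at 139978932 to 139979052, stood in the OVA list only, assigned to Spef1l, with a fold enrichment of 4.94 and a log10 FDR of -22.9.

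Adam6b, which lies within the immunoglobulin heavy chain locus, carried the highest Adam peak. This exon peak on chromosome 12 at 113490709 to 113491338 had a fold enrichment of 42.1 and stood in the OVA list only. Its other peak was in both lists, with 5.09 in the OVA and 11.8 in the PBS list, where its log10 FDR was -2.38. The Adam6b values therefore pointed in different directions within the gene. Adam11 had an OVA peak of 6.16 and Adam1a an OVA peak of 3.90 without a PBS counterpart, while Adam21 (14.3) and Adam1b (2.06) had PBS peaks without an OVA counterpart. The log10 p value of these 4 peaks lay between -7.20 and -3.29, so the evidence for them was weak.

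Adam22 and Adam23 lack protease activity and serve as neuronal adhesion receptors. Adam22 had 3 peaks in each list in the 3' UTR on chromosome 5. Its strongest had 16.7 in the OVA and 13.5 in the PBS list, and a narrow one had 6.85 and 2.51. The narrow Adam23 peak on chromosome 1 had 3.25 in the OVA and 7.4 in the PBS list, and its wide peak had 7.13 and 9.53. The ratios over 2 in these genes thus came from the narrow peaks. Adam1a, a sperm fertilin, had 4 OVA and 3 PBS peaks, of which 1 per list was called on Gm42878 and shared bases with another Adam1a peak. Its 5' UTR peak had 8.26 and 12.7, and that of its neighbour Adam1b had 2.52 and 1.6.

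Several peaks carried an Adam name but were called elsewhere. The peaks named Adam30, with up to 22.9 in the OVA and 17.7 in the PBS list, were called on Notch2 and lay over 10 kb from the start of the Adam30 transcript. A pair of PBS peaks named Adam9, with up to 3.23, was called on Htra4, and a peak named Adam32, with 2.73 and 2.18, was called on Adam9. These peaks lay outside the RefSeq position of the gene they were named for.

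Of the protease and inhibitor peaks, the single highest in each list was an Adamts peak. Adamts15, a proteoglycanase, had a 3' UTR peak on chromosome 9 at 30901132 to 30902659 with 43.6 in the OVA and 35.8 in the PBS list. A weaker 3' UTR peak of the gene had 3.73 and 2.01, and the PBS list held a further pair of peaks under its name, of 2.05 each, that were called on Gm29724. The strongest peak was thus shared. Adamts5, the main aggrecanase of mouse cartilage, had 4 peaks in each list on chromosome 16. Its 3' UTR peak had 24.4 in the OVA and 23.8 in the PBS list, and a 5' UTR peak at 85900359 to 85900629 had 15.7 and 7.53. Adamts8 had 14.3 and 12.5 at its start and 11.1 and 9.64 in the 3' UTR. In these strong peaks the lists were close, apart from the 5' UTR peak of Adamts5 with 15.7 and 7.53. A weaker 5' UTR peak of Adamts5 lay the other way, with 2.76 in the OVA and 3.59 in the PBS list.

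Adamts1, a protease of versican and aggrecan that is induced by inflammation, had 3 peaks in the OVA and 6 in the PBS list, the most of any family gene in the latter. The strongest lay in the 3' UTR on chromosome 16, from 85795235, with 22.9 in the OVA and 18.9 in the PBS list. Its 5' UTR peak, at 85802814 to 85803113 in both lists, had 4.10 and 2.82. A pair of its PBS peaks had no OVA counterpart, an exon peak of 2.09 and a 3' UTR peak of 1.76. The additional PBS peaks were thus of low enrichment. Adamts4, a further aggrecanase, had a peak of 91 bp in each list on chromosome 1, of 5.82 in the OVA and 10.4 in the PBS list. These peaks did not overlap and lay 118 bp apart.

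Within the Adamts family, Adamts12 and Adamts6 had the largest ratios toward the PBS list. The Adamts12 exon peak on chromosome 15 had 6.47 in the OVA (11311049 to 11311467) and 30.1 in the PBS list (11311079 to 11311378), a ratio of 4.65. Its log10 FDR was lower in the OVA list, at -23.6, than in the PBS list, at -8.31. The Adamts6 3' UTR peak on chromosome 13, at 104493696 to 104494236 in both lists, had 14.4 and 32.9. At the 5' end of Adamts6 the order was reversed, with 11.4 in the OVA and 6.91 in the PBS list. Adamts9 had a pair of OVA peaks, of 2.24 and 2.88, without a PBS counterpart, and Adamts10 had a PBS peak of 1.7 without an OVA counterpart. By the called gene, both genes had a 3' UTR peak in each list.

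The Adamtsl proteins resemble Adamts proteins without the protease domain and bind to microfibrils. All 5 of their pairs were lower in the OVA list, with a median ratio of 0.798 and no ratio beyond 2, beside 38.0% of all pairs that were lower in the OVA list. All 5 also lay below the median ratio of all pairs. By the called gene 6 of 6 were lower. Adamtsl3 had 14.7 and 21 in its 3' UTR peak, Adamtsl5 had 14.8 and 18.5, and Adamtsl2 had 3.06 and 4.58. The pairs came from 3 genes, and 1 of the 2 Adamtsl5 pairs lay where peaks of the same list share bases, so that it is less certain. Adamtsl1 had an exon peak of 3.83 in the OVA list only, while a 3' UTR peak called on it was in both lists with 4.35 and 5.92. Further peaks called on Adamtsl1, of 2.94 in the 3' UTR and 4.11 in an exon, stood in the OVA list only. Adamtsl4 had an exon peak of 1.63 in the PBS list only.

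Besides the assigned gene, the lists give the called gene of each peak. Of the family peaks, 10 OVA peaks, or 13.3%, and 15 PBS peaks, or 18.1%, were called on a gene other than the assigned one, beside 22.5% and 22.8% of all peaks. Conversely, 23 OVA and 16 PBS peaks were called on a family gene but assigned elsewhere, of which 22 and 16 lay in the 3' UTR. By the called gene the OVA list had 89 peaks on 46 genes and the PBS list 85 peaks on 44 genes. This added 8 genes without an assigned peak: Adam8, Adamts2, Adamts3, Mmp2, Mmp19, Mmp24, Mmp25 and Mmp28. Mmp28, an epithelial member also named epilysin, had 3' UTR peaks of up to 26.6 in the OVA and 23.5 in the PBS list. Mmp2, a gelatinase, had a peak of only 1.40 and 1.47. Mmp25, a metalloproteinase of neutrophils, had a peak of 4.11 in the OVA list only. The assigned names thus left out a set of family genes, nearly always at 3' UTR peaks. The 3' UTR share among all peaks assigned to another gene was not counted, so this cannot be read as particular to the family.

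The first 50 transcribed bases of RefSeq genes on GRCm38.p6 were read for GGAC, the core of the m6A consensus, since a few family peaks reached into them. Windows were found for 54 of the family genes. Of all 32851 windows, 18.9% held GGAC on the transcribed strand and 17.4% on the other. A peak reached into 8 windows of 7 family genes, and 2 of these windows held it. They are shown with GGAC in capitals, 5′ to 3′ on the plus strand. They were picked because they hold GGAC under a peak, so they cannot show whether GGAC goes with strong peaks. Of all 59 family windows, 9 held GGAC. The Mmp14 and Mmp15 peaks are among the strongest 5' UTR peaks of the family. For Mmp14 this holds in the OVA list only, with 18.2 there and 1.92 in the PBS list. The Mmp14 stretch, at chr14:54431603-54431632, holds GGAC inside the OVA peak and upstream of the PBS peak, and the Mmp15 stretch is at chr8:95352296-95352325, within the peak of both lists.
Mmp14: gggagaagggagGGACcaaaggagagcaga
Mmp15: ggGGACgccgggcgctggctagctggctgg
A match of these letters is a description and does not show a methylated base.

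Other genes of matrix proteolysis were read by the called gene. Of 19 activators and other inhibitors, 16 had a peak in the OVA and 14 in the PBS list, and these 14 were in both. Over all called genes, 11.7% of those in the OVA list had no PBS peak, and 8.07% of those in the PBS list had no OVA peak. Of their 25 OVA peaks, 5 had no PBS counterpart, beside 19.4% of all OVA peaks, and of their 20 PBS peaks, each had an OVA counterpart, beside 14.5% of all PBS peaks without one. Of their 20 pairs, 1 was over 2 times higher in the OVA list and none in the PBS list, beside 7.71% and 4.88% of all pairs. Furin, the convertase that activates membrane-anchored metalloproteinases, had up to 14.3 in the OVA and 18 in the PBS list. Reck, a membrane inhibitor of metalloproteinases, had 4.23 and 2.60. Plat and Serpine2 had a peak in the OVA list only, of 2.67 and 1.75. Of 12 substrates, 9 had a peak in the OVA and 9 in the PBS list, 8 of them in both. Of the substrate peaks, 4 of 24 OVA and 2 of 25 PBS peaks had no counterpart, beside 19.4% and 14.5% of the lists. Vcan, the versican gene, had 10 peaks in each list, of which 3 OVA peaks had no PBS counterpart, and Hbegf, a ligand released by Adam proteases, had 18.8 and 20.8. None of the 19 substrate pairs differed by over 2 times, beside 12.6% of all pairs.

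Markers of lung cells were read in the same way. Of 7 epithelial markers 6 had a peak in each list, Sftpc having none, and so had 3 of 3 endothelial and 3 of 3 fibroblast markers. Of 4 leukocyte markers, 4 had a peak in the OVA and 3 in the PBS list, beside 11.7% of all called OVA genes without a PBS peak. Ptprc had 2 and 1 peaks, Itgam 2 and 1, Cd3e 3 and 2, and Ighm 1 and 0. Of the leukocyte peaks, 4 of 8 OVA and 0 of 4 PBS peaks had no counterpart, beside 19.4% and 14.5% of the lists. None of 4 markers of eosinophils and mast cells had a peak in either list. Of 3 neutrophil markers, 1 had a peak in the OVA and 2 in the PBS list, and of 3 macrophage markers, 1 and 2 did. S100a8 and Chil3 were found in the PBS list only, beside 8.07% of all called PBS genes without an OVA peak. Of the neutrophil peaks, 0 of 1 OVA and 1 of 2 PBS peaks had no counterpart. Among macrophage peaks these were 0 of 2 and 1 of 3. Among 4 genes of striated muscle, Ttn had 23 OVA and 40 PBS peaks, Myh6 0 and 2, Ryr2 3 and 2, and Actc1 none. Of the muscle peaks, 3 of 26 OVA and 26 of 44 PBS peaks had no counterpart, beside 19.4% and 14.5% of the lists. Of 18 muscle pairs, 5 were over 2 times higher in the OVA list and none in the PBS list, beside 7.71% and 4.88% of all pairs, with a median ratio of 1.396 beside 1.098. Most of these values came from Ttn, which had 24 of the unmatched PBS peaks and 16 of the pairs. Ttn peaks thus differed in number between the lists, and their part in the values above was not tested.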

How the data were processed

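Each of 12 libraries, an IP and an input library of 3 OVA and 3 PBS mice, was processed by the authors, who cleaned reads with FASTP, aligned them with HISAT2 to the Ensembl mouse genome, used exomePeak to call peaks and ChIPseeker for annotation. The deposited fold enrichment is a ratio of IP over input, and the deposited scores are p values and FDRs on a log10 scale. The second cDNA strand was marked with dUTP and removed. How replicates were combined, and whether strand was used to call peaks, is not given in the sources used here. In the lists, 649 OVA and 606 PBS starts lay 1 bp before the assigned transcript start, against 20 and 19 at it, so starts were taken to count from 0 and are printed with 1 added. Of 174 peaks called on a family gene, 170 overlapped that gene in RefSeq (GRCm38.p6).

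Peaks were compared by exonic blocks (at least 1 bp). Shares have 95% Wilson intervals, which count each peak as independent. Pairs were mutual best overlaps within an assigned gene. Alternatives were a 50% overlap, genomic spans, an FDR under 0.05, a fold enrichment of at least 2, the called gene, protein-coding transcripts and a ratio of 1.5. Named were every Timp, every Mmp with a peak, and of Adam and of Adamts with Adamtsl the 3 highest peaks per list, the 3 unmatched peaks per list with the lowest p, the 3 largest ratios in each direction and the 2 genes with most peaks, besides Adam6b, Adam8, Adam10, Adam17, Adam33, Adamts1 and Adamts4. Genes outside this rule were named after their values were seen. Members and lists were chosen with earlier results of these data known. Of the planned comparison genes, 1 was left out of the activators and inhibitors and 1 of the leukocyte markers. Python 3.11.15, numpy 2.4.6, pandas 2.3.3, scipy 1.17.1 and matplotlib 3.10.9 were used, and the code was tested on simulated data. There, 300 of 300 planted pairs were found among sparse peaks and 240 among crowded ones, each loss being at a peak with a rival of as many shared bases or more. In each list 4 family peaks, of Adam1a and Adamtsl5, share bases with another peak, and their pairing is the least certain.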

Additional observations from a re-analysis of the deposited data

How the results depend on the processing

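Over 10 results and 54 alternatives, 48 values stayed within 1.5 times the reported count or inside the interval of the reported share or median. These bounds are wide, and some values within them still changed a comparison with the whole list. Examples, all by the called gene, are the PBS share without a counterpart of 16.5% and the 3' UTR shares of 65.2% and 65.9%. When a shared peak had to cover 50% or more of its counterpart in each direction, 33.7% (24.5% to 44.4%) of PBS family peaks had no OVA counterpart, beside 28.3% of all PBS peaks, and 26.7% of OVA family peaks had no PBS counterpart, beside 31.4% of all OVA peaks. Under this rule the interval of the PBS share held the share of its list. It also left 2 pairs in place of 4 that were over 2 times higher in the PBS list. With protein-coding transcripts only, which leaves fewer peaks, the genes with a peak numbered 23 in the OVA and 22 in the PBS list, and the 3' UTR held 27.8% and 30.6% of the peaks. Of the alternatives, 14 were chosen after seeing the data. They kept peaks called on their assigned gene only, took 3' UTR shares by the called gene, or divided ratios by the median of all pairs, which gave 5 pairs over 2 times higher in each list. No paired analysis was possible because each list pools the mice of a group, although the labels share replicate numbers. For the same reason no replicate could be left out. Depth per peak is unknown, so fold enrichments have no interval, and weak peaks may be missed in either list.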
